A study of Mus musculus with 6 samples.

Results

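The genes described here are the 10 core genes of the mammalian circadian clock, Clock, Arntl, Per1, Per2, Per3, Cry1, Cry2, Nr1d1, Nr1d2 and Dbp, taken by name out of 54352 genes in the deposited table. They were measured by RNA sequencing in 3 libraries of SIRT1 KO mESCs, mouse embryonic stem cells in which the Sirt1 gene had been disrupted, and in 3 libraries of WT mESCs. All cells were male, of the 129Sv/J background and grown in ESGRO, a serum-free medium for mouse embryonic stem cells, with no treatment and no series of times. Gene targeting in the R1 line gave the KO cells of the study, and as no line or clone stands in the sample labels, each genotype is read here as 1 line and the p-values measure only the spread between these libraries. The sample labels describe poly(A) selection, whereas the series description gives ribosomal RNA depletion, and the libraries' origin from separate cultures is not given in the labels.

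The circadian clock is a loop of transcription and translation that runs in most mammalian cells. CLOCK and its partner ARNTL (also called BMAL1) bind DNA elements called E-boxes and activate the Period and Cryptochrome genes, whose protein products return to the nucleus and repress that activation, while the REV-ERB receptors encoded by Nr1d1 and Nr1d2 repress Arntl in a coupled loop and DBP drives output genes through D-box elements. SIRT1 is an NAD+-dependent deacetylase that is known to bind CLOCK-ARNTL and to act on ARNTL and PER2 protein, and mouse embryonic stem cells are known to lack a running oscillation of this loop until they differentiate. A deposited value is a level of RNA on the log2 scale, so neither protein nor the phase of a rhythm was measured.

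Differences between genotypes are given as SIRT1 KO minus WT on the log2 scale, with the standard error (SE) and Benjamini-Hochberg adjusted p of limma, a linear model fitted over the 26571 genes whose mean linear level reached 10. A gene was called higher or lower at an adjusted p under 0.01, the threshold of the study. All 10 core clock genes passed the filter on low values. Sirt1 itself, the check of the genotype labels, was at 13.71, 13.72 and 13.79 in SIRT1 KO mESCs, against 15.52, 15.54 and 15.49 in WT mESCs (adjusted p = 1.16e-07, log2 fold change -1.78, SE 0.049), where an exact permutation test over libraries (two-sided) gave p = 0.10 and can give no smaller value for 3 against 3. The 10 pluripotent cell markers looked up, Pou5f1, Sox2 and Nanog among them, were at log2 values from 15.90 to 18.67, with a summed linear level of 2190000 to 2260000 in SIRT1 KO mESCs and 2200000 to 2290000 in WT mESCs. Of these 10 markers Klf4 was called lower (log2 fold change -0.34, adjusted p = 0.00441 from limma), and the other 9 did not pass. Sox2 (-0.22) and Klf2 (-0.23) also lay wholly below the WT values, and Nanog (0.15) wholly above. The summed levels of markers of other cell types were far lower but differed between genotypes. As a single gene the neural progenitor marker Tubb3, which was not called, reached 15.48, near the lowest value of the pluripotent cell markers. The summed linear level of 6 neural progenitor markers was 71000 to 71500 in SIRT1 KO mESCs and 53800 to 63800 in WT mESCs, and that of 6 mesoderm markers was 13100 to 14200 in SIRT1 KO mESCs and 9710 to 10600 in WT mESCs. The 6 trophoblast markers summed to 6790 to 7160 in SIRT1 KO mESCs and 9970 to 10500 in WT mESCs. The 6 primitive endoderm markers summed to 2200 to 2520 in SIRT1 KO mESCs and 1710 to 2030 in WT mESCs, and the 8 fibroblast markers to 1330 to 1450 in SIRT1 KO mESCs and 1850 to 2130 in WT mESCs. These sums rest on few abundant genes, and members of a list differed in direction. Of the neural progenitor markers Nes was higher (log2 fold change 0.87) and Sox1 lower (-0.62), and of the primitive endoderm markers Sox7 was higher (0.96) and Gata6 (-0.66) and Pdgfra (-0.55) lower. Eomes was the mesoderm marker called, as higher (0.48), Tfap2c the trophoblast marker, as lower (-0.59), and Thy1 the fibroblast marker, as lower (-0.56). The fibroblast genes Postn, Dcn and Fap and the trophoblast gene Prl3d1 were at 0 in every library. The part of these marker differences in the values of the clock genes was not tested, and in bulk RNA a change in the number of cells that express a gene and a change in RNA per cell cannot be told apart.

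Of the 10 core clock genes, Cry1 was higher and Clock and Nr1d2 were lower in SIRT1 KO mESCs, and 7 did not pass the test, so that 3 of 10 were called beside 16.6% of all tested genes. Cry1 was 1.58-fold the WT level, Clock 0.758-fold and Nr1d2 0.821-fold, and no core clock gene was called with a 2-fold change. Over all tested genes 8.47% were called higher and 8.12% lower, and among 12456 genes whose mean level reached 1000, where all core clock genes but Per2 lie, 15.3% were higher and 11.3% lower, 26.7% together. The median log2 fold change of the 10 genes was 0.10, against -0.01 over all tested genes, and the median of its size without sign was 0.22, against 0.12. In 5 genes all 3 SIRT1 KO values lay above all 3 WT values, in 2 genes all lay below, and in 3 genes the genotypes overlapped, while over all tested genes 21.8% lay wholly above and 22.9% wholly below, 44.7% in all. The medians and these shares over all tested genes were not matched for level.

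**Figure D1:**
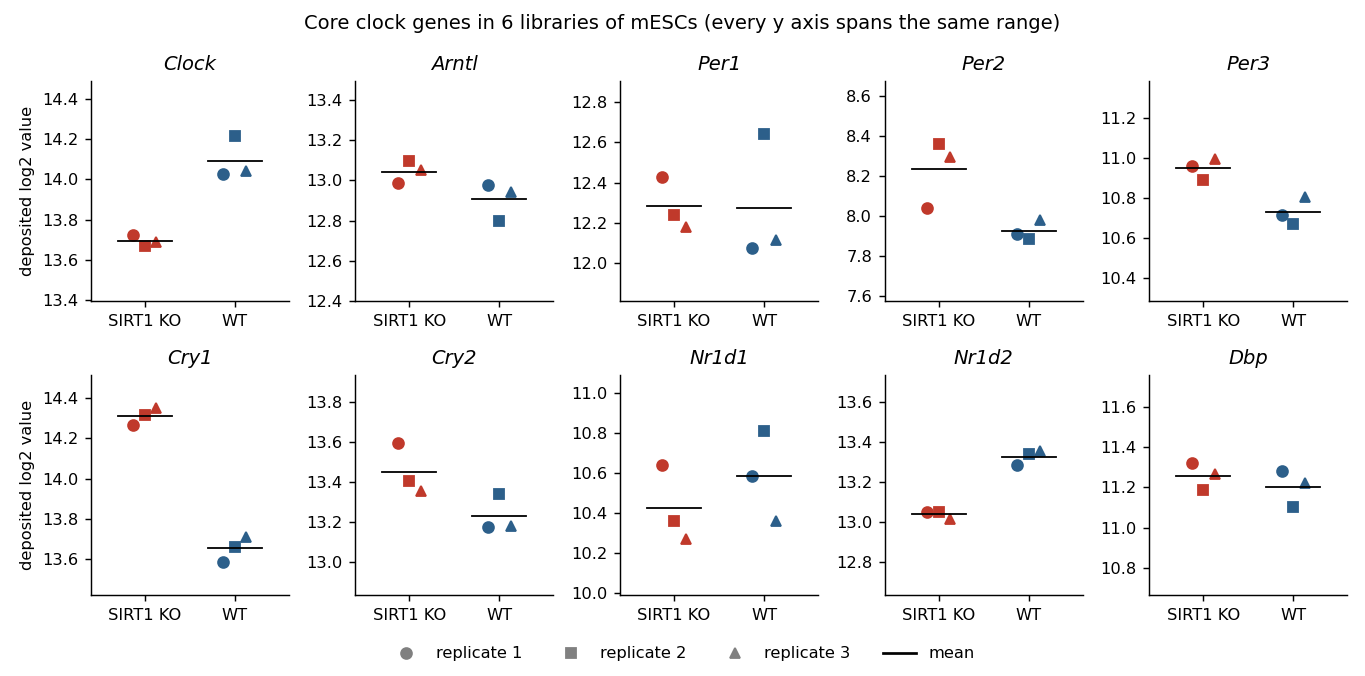
Deposited log2 value of each core clock gene (y axis, the same span in every panel) in the 3 SIRT1 KO libraries (red, left) and the 3 WT libraries (blue, right) of mESCs, with symbols for the replicate number and a line at the mean. The SIRT1 KO values of Cry1 lie above all WT values by a gap of 0.56, those of Clock and Nr1d2 lie below all WT values, and the values of Per1, Nr1d1 and Dbp overlap.

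Promoter sequences were set beside these values because E-boxes and D-boxes are the elements through which the core loop acts. RefSeq promoter windows of GRCm38.p6, from 250 bases before to 50 bases after an annotated start, were found for 9 of the 10 genes, all but Per2. They were searched on both strands for the E-box CACGTG, found in 7.15% of all 32851 windows, the E'-box CACGTT (4.68%), the D-box TTATGTAA (0.938%), the cAMP response element TGACGTCA (1.79%) and the core of the REV-ERB and ROR element, TAGGTCA or TGGGTCA (6.45%). Cry1 held an E'-box and an E-box, Per1 an E-box, Cry2 and Nr1d1 an E'-box each, Per3 a pair of D-boxes, and Arntl a REV-ERB and ROR core in the second of its windows. The windows of Clock, Nr1d2 and Dbp held none of these letters. The sequences printed here are those of Cry1, the core gene that was higher, of Ciart, the gene of the wider network with the largest difference, and of Per3, which holds the D-boxes, each limited to the bases outside annotated exons. They are written 5′ to 3′ on the strand of the gene, with E-boxes, E'-boxes and D-boxes in capitals.
Cry1 (chr10:85185065-85185304, minus strand): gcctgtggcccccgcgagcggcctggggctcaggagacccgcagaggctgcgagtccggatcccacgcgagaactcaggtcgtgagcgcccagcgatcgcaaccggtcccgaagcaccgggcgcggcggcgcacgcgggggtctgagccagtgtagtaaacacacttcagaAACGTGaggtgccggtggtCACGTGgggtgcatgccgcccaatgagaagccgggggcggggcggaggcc
Ciart (chr3:95882252-95882478, minus strand): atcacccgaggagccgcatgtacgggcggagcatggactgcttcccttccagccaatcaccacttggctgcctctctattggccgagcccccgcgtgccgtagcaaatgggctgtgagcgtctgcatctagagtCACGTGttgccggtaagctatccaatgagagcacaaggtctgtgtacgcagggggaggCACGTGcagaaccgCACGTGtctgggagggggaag
Per3 (chr4:151044666-151044915, minus strand): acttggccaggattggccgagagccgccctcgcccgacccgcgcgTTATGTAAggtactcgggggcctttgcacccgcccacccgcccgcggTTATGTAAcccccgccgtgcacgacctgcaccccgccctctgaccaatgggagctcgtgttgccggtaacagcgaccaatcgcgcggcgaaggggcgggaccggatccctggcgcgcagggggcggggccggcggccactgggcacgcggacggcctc

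In Cry1 the E'-box, read as AACGTG on this strand, begins at -79 and the E-box at -60 from the RefSeq start. Ciart holds 3 E-boxes, which begin at -116, -58 and -44 from its start, and the D-boxes of Per3 begin at -205 and -158. A match is a description of the letters and no measure of binding, and windows of this length do not hold more distant elements.

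Clock encodes one of the 2 subunits of the activator and lies on chromosome 5 (GRCm38, 76209868 to 76304792, minus strand). It was at 13.72, 13.67 and 13.69 in SIRT1 KO mESCs, against 14.03, 14.22 and 14.04 in WT mESCs. The 3 SIRT1 KO values were close together and all lay below the lowest WT value, and WT replicate 2 was the highest. The means were 13.69 ± 0.028 in SIRT1 KO mESCs and 14.09 ± 0.106 in WT mESCs (SD, n = 3 each), a log2 fold change of -0.40 (adjusted p = 0.00163, SE 0.063), which is 24.2% less RNA, with a 95% interval of the fold from 0.686 to 0.836. Among the tested genes 1883 fell by more. The call was lost without SIRT1 KO replicate 2 (adjusted p = 0.0131) and without SIRT1 KO replicate 3 (0.0114), and over all alternatives the adjusted p ran from 0.000295 to 0.0131. Arntl encodes the partner of CLOCK and is the one component without which the rhythm of mouse cells and animals stops (chromosome 7, 113207465 to 113314126, plus strand). It was at 12.99, 13.10 and 13.05 in SIRT1 KO mESCs, against 12.98, 12.80 and 12.94 in WT mESCs. All SIRT1 KO values lay above all WT values, by a gap of only 0.0090. The difference of 0.14 (adjusted p = 0.15, SE 0.065) did not pass, and its 95% interval ran from -0.01 to 0.29, so that a rise of Arntl larger than 1.22-fold lay outside it.

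The activator genes thus stood in a different order in the 2 genotypes when levels were divided by merged exon length. That length counts the exons of all annotated isoforms, 13727 bases for Clock and 7523 for Arntl. The order rests on these lengths, and the isoforms in use were not analysed, while the difference between genotypes does not depend on them. Within a library, the log2 level of Clock per kilobase of exon minus that of Arntl was -0.13, -0.30 and -0.23 in SIRT1 KO mESCs, against 0.18, 0.55 and 0.23 in WT mESCs. Clock lay below Arntl in every SIRT1 KO library and above it in every WT library, by a difference of -0.54 between genotypes (two-sided exact permutation test over libraries, p = 0.10, which is its minimum, and 0.30 after adjustment over 6 pairs of related genes). As all SIRT1 KO values of Clock lay below the WT values and all those of Arntl above, this p was fixed beforehand. It therefore adds no support to the values of the single genes. The 6 pairs were compared after the values of single genes had been seen.

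Among the repressors, Cry1 had the largest difference of the 10 genes. CRY1 is a strong repressor of CLOCK-ARNTL, and its gene, whose promoter window printed here holds an E'-box and an E-box, lies on chromosome 10 (85131700 to 85185064, minus strand). It was at 14.27, 14.32 and 14.35 in SIRT1 KO mESCs, against 13.58, 13.66 and 13.71 in WT mESCs. The lowest SIRT1 KO value stood 0.56 above the highest WT value, a gap several times wider than the spread within either genotype. The means were 14.31 ± 0.0428 in SIRT1 KO mESCs and 13.65 ± 0.0627 in WT mESCs (SD, n = 3 each), a log2 fold change of 0.66 (adjusted p = 4.35e-05, SE 0.055) and a fold of 1.58 with a 95% interval from 1.45 to 1.72. Among the tested genes 507 rose by more, 502 of them called higher. Cry1 was called higher under all 15 alternatives, with log2 fold changes from 0.63 to 0.72. Its paralog Cry2, also a repressor (chromosome 2, 92403646 to 92434043, minus strand), was at 13.60, 13.41 and 13.35 in SIRT1 KO mESCs, against 13.18, 13.34 and 13.18 in WT mESCs. The lowest SIRT1 KO value lay just above WT replicate 2, with a gap of 0.0157, and the spread within each genotype was wider than that gap. The difference of 0.22 (adjusted p = 0.0656, SE 0.078) did not pass, and its 95% interval ran from 0.04 to 0.40.

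Cry1 was the cryptochrome with the higher level per kilobase in both genotypes. The within-library log2 difference, Cry1 minus Cry2, was 1.59, 1.83 and 1.92 in SIRT1 KO mESCs, against 1.33, 1.24 and 1.45 in WT mESCs. The values did not overlap and differed by 0.44 (two-sided exact permutation test over libraries, p = 0.10, which is its minimum, and 0.30 after adjustment over the 6 pairs). Any matching of the libraries within a genotype would keep these differences apart, so this p was also fixed beforehand by the values of the single genes. It adds no support to them.

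The Period genes encode the partners of the cryptochromes in the repressor complex, and none of the 3 was called. Per2, the Period gene whose loss shortens and then abolishes the rhythm of mice (chromosome 1, 91415982 to 91459324, minus strand), was at 8.04, 8.36 and 8.30 in SIRT1 KO mESCs, against 7.91, 7.89 and 7.98 in WT mESCs. All SIRT1 KO values lay above the WT values, replicate 1 by little. The difference of 0.31 (adjusted p = 0.045, SE 0.098) did not pass 0.01 and would pass 0.05, as 28.5% of all tested genes did, and its 95% interval ran from 0.09 to 0.53. Per3 (chromosome 4, 151003652 to 151044665, minus strand) is the Period gene that is dispensable for the core rhythm of mice. It was at 10.96, 10.89 and 11.00 in SIRT1 KO mESCs, against 10.71, 10.67 and 10.80 in WT mESCs. The genotypes did not overlap, and the difference of 0.22 (adjusted p = 0.0466, SE 0.070) again lay between the thresholds of 0.01 and 0.05, with an interval from 0.06 to 0.38.

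Per1 (chromosome 11, 69095217 to 69109960, plus strand), which many signals induce directly in other cells, was at 12.43, 12.24 and 12.18 in SIRT1 KO mESCs, against 12.07, 12.64 and 12.11 in WT mESCs. WT replicate 2 was the highest of the 6 libraries and the other WT libraries were the lowest, so the genotypes overlapped. The log2 fold change of 0.01 (adjusted p = 0.982, SE 0.144) has an interval from -0.32 to 0.33 and thus excludes neither a fall nor a rise of 1.2-fold. Without WT replicate 2 it was 0.19 (adjusted p = 0.0919), and it was negative without SIRT1 KO replicate 1, WT replicate 1 or WT replicate 3. The log2 level of Per1 per kilobase relative to those of Per2 and Per3 differed between genotypes by -0.30 and -0.21, and that of Per2 relative to Per3 by 0.09 (exact permutation test, two-sided, p from 0.30 to 0.60, and 0.60 for each after adjustment).

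The REV-ERB receptors are heme-binding repressors that take Arntl as a target. Nr1d2 (chromosome 14, 18204054 to 18239127, minus strand) was at 13.05, 13.05 and 13.02 in SIRT1 KO mESCs, against 13.28, 13.34 and 13.35 in WT mESCs. The SIRT1 KO values were almost equal and all lay below the WT values. The means were 13.04 ± 0.0202 in SIRT1 KO mESCs and 13.33 ± 0.0376 in WT mESCs (SD, n = 3 each), a log2 fold change of -0.28 (adjusted p = 0.0033, SE 0.051), which is 17.9% less RNA. This call was the least stable of the 3. It was lost with each library centred on its median (log2 fold change -0.23, adjusted p = 0.0138), without any 1 of the SIRT1 KO replicates 1, 2 and 3 (0.0120, 0.0206 and 0.0226) and without WT replicate 3 (0.0154), with a range from 0.00202 to 0.0226. Nr1d1, the paralog (chromosome 11, 98767932 to 98775333, minus strand), was at 10.64, 10.36 and 10.27 in SIRT1 KO mESCs, against 10.58, 10.81 and 10.36 in WT mESCs. The values overlapped and spread widely within both genotypes. The difference of -0.16 (adjusted p = 0.407, SE 0.133) has an interval from -0.46 to 0.14, which includes the fold change of Nr1d2. The within-library log2 difference per kilobase, Nr1d2 minus Nr1d1, averaged 1.81 ± 0.18 in SIRT1 KO mESCs and 1.93 ± 0.235 in WT mESCs (SD, n = 3 each; exact permutation test, two-sided, p = 0.50, and 0.60 after adjustment), so no difference between the receptors was shown.

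Dbp, whose product activates genes with D-boxes and which is itself a direct E-box target of CLOCK-ARNTL in other tissues, lies on chromosome 7 (45705088 to 45710203, plus strand). It was at 11.32, 11.19 and 11.27 in SIRT1 KO mESCs, against 11.28, 11.10 and 11.22 in WT mESCs. The genotypes overlapped almost fully. The log2 fold change was 0.06 (adjusted p = 0.61, SE 0.074), with an interval from -0.11 to 0.22, so that a rise above 1.17-fold lay outside it.

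**Figure D2:**
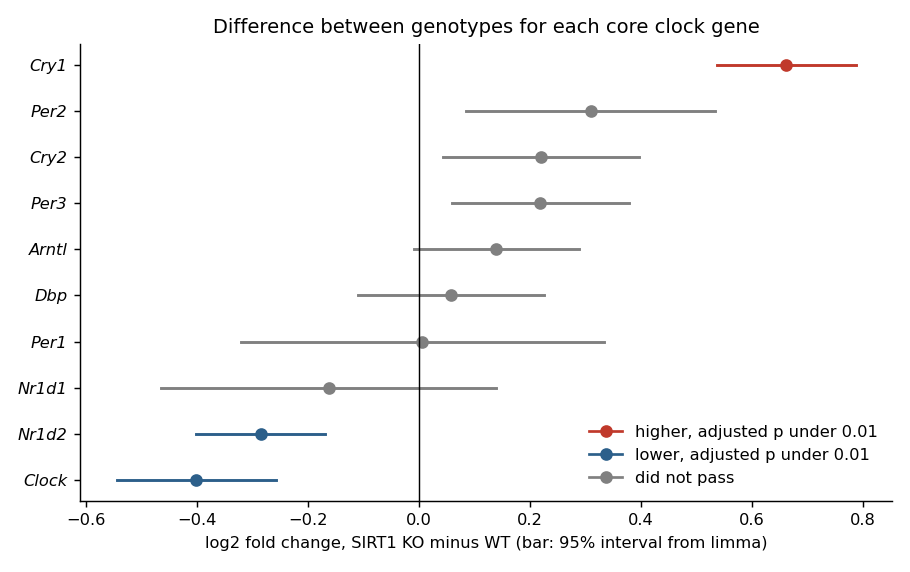
Log2 fold change of each core clock gene, SIRT1 KO minus WT (x axis), with its 95% interval from limma, ordered from the highest to the lowest and coloured by the call at an adjusted p under 0.01. Cry1 at 0.66 stands apart from the other genes, Clock at -0.40 and Nr1d2 at -0.28 are the called falls, and the widest intervals are those of Per1 and Nr1d1.

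Gene annotation bears on how far some of these values belong to 1 gene, since the sources used here do not give whether reads were counted by strand, and without strand the reads of overlapping genes cannot be told apart. Dbp shares 539 bases or 18.0% of its exon length with Sphk2, a sphingosine kinase gene on the opposite strand, which was higher in SIRT1 KO mESCs (14.39, 14.32 and 14.34, against 13.93, 13.92 and 14.09 in WT mESCs, log2 fold change 0.37, adjusted p = 0.00195 from limma). Nr1d1 shares 263 bases or 8.55% with Thra, the thyroid hormone receptor alpha gene on the opposite strand, which did not pass (adjusted p = 0.324). Cry2 shares 295 bases or 4.67% with D930015M05Rik and Arntl 33 bases or 0.439% with Gm45355, both noncoding genes of the opposite strand that did not pass (adjusted p = 0.362 and 0.434). Per3 lies inside Camta1 on the same strand with 0 shared exon bases, and Clock holds Ube2n-ps1 and Gm43658 in its introns. Cry1, Nr1d2, Per1 and Per2 overlap no annotated gene. Within 2.5 Mb on either side, the median log2 fold change of the other tested genes lay between -0.05 around Per2 and 0.01, and around Cry1 it was -0.0039 over 53 genes, of which 5 were lower and 5 higher.

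The levels of the 10 genes covered a wide range, given here as normalized expression on the linear scale per kilobase of merged exon length. Cry1 was the highest in both genotypes, at 6090 ± 180 per kilobase in SIRT1 KO mESCs and 3850 ± 167 in WT mESCs, and Per2 the lowest, at 51.6 ± 5.88 and 41.5 ± 1.39 (SD, n = 3 each). Averaged over the 6 libraries, Cry1 stood at the 77.1 percentile of 16158 tested protein-coding genes and Per2 at the 19.4 percentile. In SIRT1 KO mESCs the order was Cry1, Cry2, Nr1d2, Arntl, Clock, Per1, Dbp, Nr1d1, Per3 and Per2. In WT mESCs it was Cry1, Nr1d2, Cry2, Clock, Arntl, Per1, Dbp, Nr1d1, Per3 and Per2. Thus Cry2 and Nr1d2, and Arntl and Clock, changed places between the genotypes, and the rest kept their rank. The order within a genotype rests on merged exon lengths, which may differ from those of the RNA present. Cry2 was at 1780 ± 159 in SIRT1 KO mESCs and 1520 ± 99.6 in WT mESCs, and Nr1d2 was at 1560 ± 21.8 in SIRT1 KO mESCs and 1900 ± 49.2 in WT mESCs. Neighbours in the order had separate library values except Clock and Per1 in SIRT1 KO mESCs, Arntl and Per1 in WT mESCs, and Per1 and Dbp in both.

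**Figure D3:**
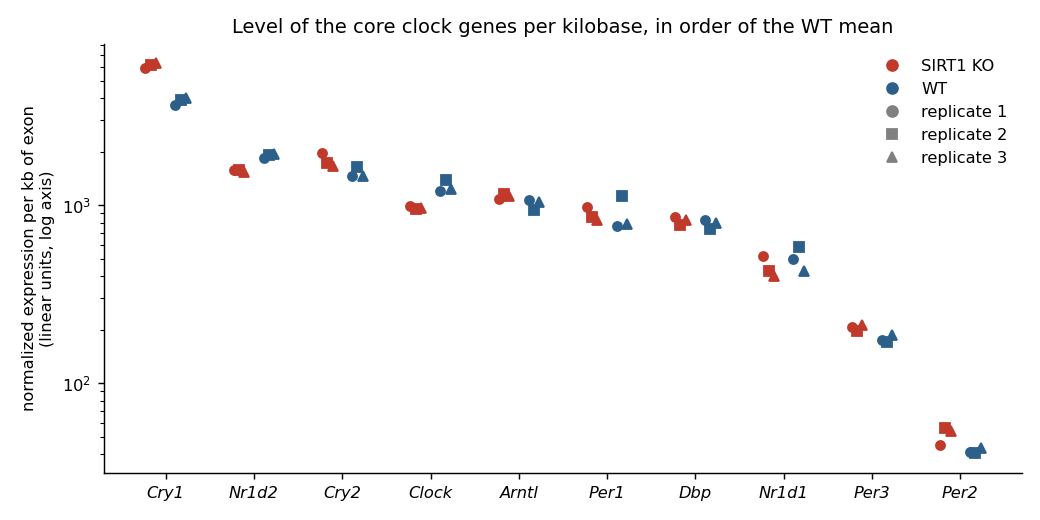
Normalized expression of each core clock gene per kilobase of exon (linear units, y axis on a log scale) in the SIRT1 KO (red, left) and WT (blue, right) libraries, ordered by the WT mean, with symbols for the replicate number. The levels run from 6090 for Cry1 to 51.6 for Per2 in SIRT1 KO mESCs and from 3850 to 41.5 in WT mESCs, and the change of order between Clock and Arntl is visible where the SIRT1 KO points of Clock lie below those of Arntl. The order of genes rests on merged exon length.

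Within a genotype the core clock genes did not vary alike. The residual SD of Per1 between libraries of a genotype was 0.242 and that of Nr1d1 was 0.211, at the 96.0 and 94.5 percentiles of all tested genes. That of Nr1d2 was 0.0302, at the 6.95 percentile, and that of Cry1 was 0.0537, at the 28.2 percentile. These percentiles were not matched for level. Clock, Per1, Cry2 and Nr1d1 were all highest in replicate 1 among the SIRT1 KO libraries and in replicate 2 among the WT libraries, and Arntl, Per2 and Cry1 were lowest in replicate 1 of SIRT1 KO mESCs, a pattern seen only after the values were known. The deviation of Per1 in WT replicate 2 from the WT mean, 0.37, lay at the 98.4 percentile of the deviations of all tested genes in that library, and that of Nr1d1, 0.23, at the 95.6 percentile. WT replicate 2 was also the library farthest from its genotype over all tested genes, with a root mean square deviation of 0.141, against 0.0662 to 0.0924 in the SIRT1 KO libraries and 0.0928 and 0.123 in the other WT libraries. In that library the clock cofactor genes Ep300, Kmt2a and Crebbp, named here for that reason after their values were seen, stood 0.81, 0.64 and 0.58 above the WT mean. This was no trait of the cofactors as a list. Genes of other roles, such as Huwe1 (0.50) and Hif3a (0.42), also stood above the mean. The cofactor genes Ciart (-0.195), Tipin (-0.15) and Nono (-0.11), among others, stood below it. The 3 calls among the core clock genes were kept without WT replicate 2.

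**Figure D4:**
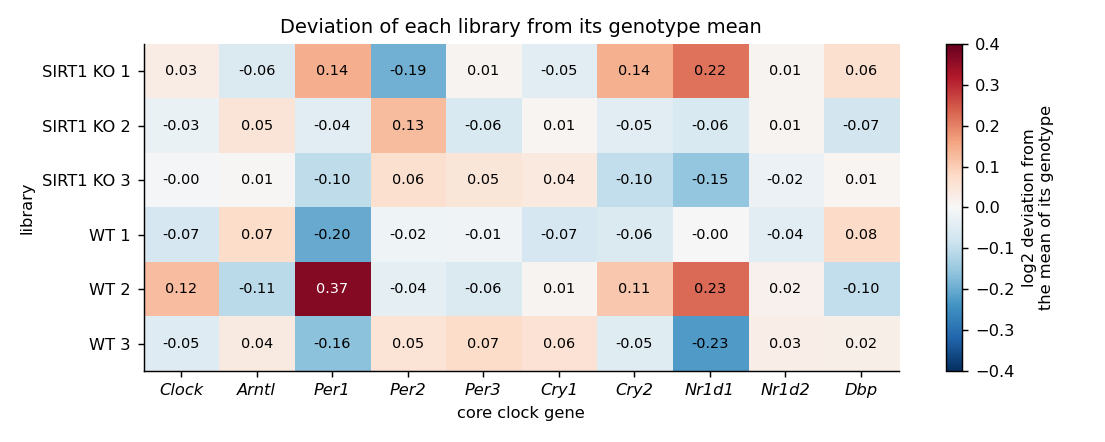
Deviation of each library's log2 value from the mean of its genotype, for the core clock genes (columns) in the 3 SIRT1 KO libraries (upper rows) and the 3 WT libraries (lower rows), with red above and blue below the mean. The strongest cell is Per1 in WT replicate 2 at 0.37, Nr1d1 varies in both genotypes, and the columns of Cry1 and Nr1d2 stay within 0.07 of 0.

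Around the core loop, 60 other genes of the clock network were looked up by role, and 57 passed the filter on low values. Of these, 12 or 21.1% were higher in SIRT1 KO mESCs, 1 or 1.75% was lower and 44 did not pass, beside the 8.47% and 8.12% of all tested genes. Their median log2 fold change was 0.09, against -0.01 over all tested genes. The levels of these genes are high (median WT level of 21100 on the linear scale). Of tested genes whose mean level reached 1000, 15.3% were higher and 11.3% lower. The medians were not matched for level. With the replicate number as a block the lower genes were 2 and the higher 10. By role, the share of higher genes was largest among the clock-controlled output genes, at 38.5%. As the lists were chosen with earlier results of these data known, these shares are a description.

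**Figure D5:**
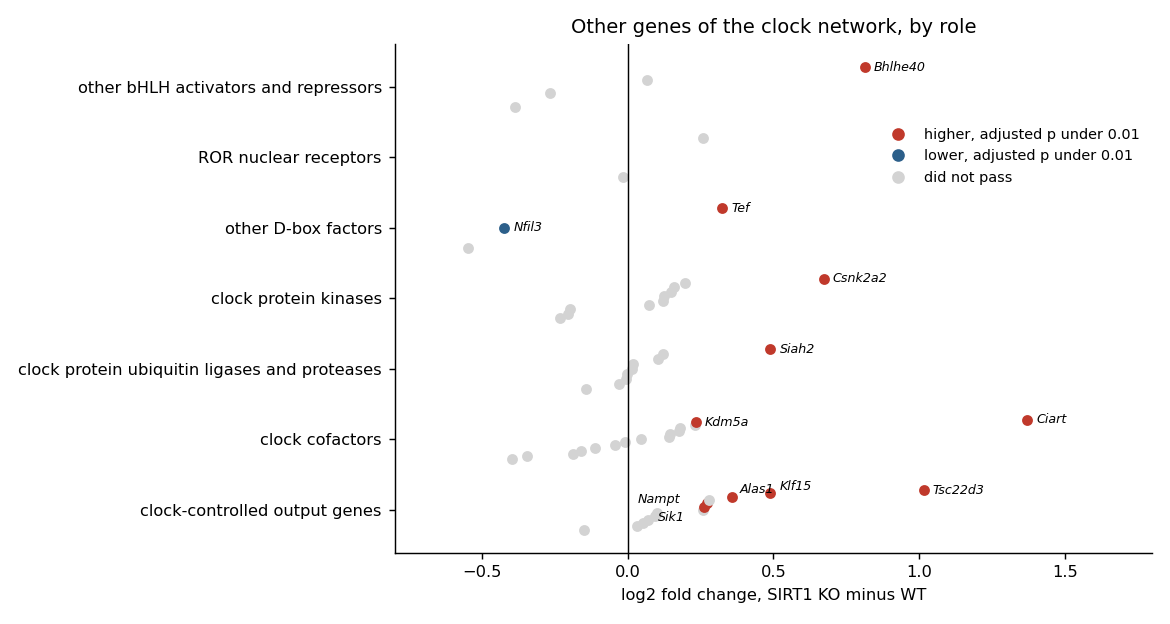
Log2 fold change, SIRT1 KO minus WT (x axis), of 56 of the 57 tested genes of the wider clock network, in rows by role, with called genes in red (higher) and blue (lower) and the rest in grey. Ciart at 1.37 and Tsc22d3 at 1.02 lie farthest to the right, and Nfil3 at -0.42 is the called fall.

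Ciart (also called CHRONO), a repressor of CLOCK-ARNTL that works beside the PER and CRY proteins and whose promoter window printed here holds 3 E-boxes, had the largest difference of the network. It was at 13.49, 13.57 and 13.58 in SIRT1 KO mESCs, against 12.23, 11.98 and 12.32 in WT mESCs. Every SIRT1 KO value exceeded every WT value by more than 1 on the log2 scale. The log2 fold change was 1.37 (adjusted p = 1.06e-05, SE 0.087), a fold of 2.59 with a 95% interval from 2.25 to 2.97, and 55 tested genes rose by more. Bhlhe40 (also called DEC1), a bHLH repressor that competes for E-boxes, was at 13.29, 13.26 and 13.22 in SIRT1 KO mESCs, against 12.32, 12.58 and 12.42 in WT mESCs. The values did not overlap, and the log2 fold change was 0.81 (adjusted p = 6.23e-05, SE 0.072). Both genes, like Cry1, encode repressors of CLOCK-ARNTL and were called higher under all 15 alternatives. These genes were grouped by role after their values were seen. The repressor genes Per1, Per2, Per3, Cry2 and Bhlhe41 were not called (log2 fold changes 0.01, 0.31, 0.22, 0.22 and 0.06). Nr1d2 and Nfil3, which encode repressors that act through other elements, were lower (-0.28 and -0.42), so the rise was not shared by all repressor genes. The 3 other bHLH genes, Npas2, Arntl2 and Bhlhe41, lay between -0.39 and 0.06 and did not pass, and neither did the 2 tested ROR receptor genes, at -0.02 and 0.26. Of the cofactors, 15 genes, only Kdm5a was also higher, a histone demethylase gene reported to enhance CLOCK-ARNTL activity (15.31, 15.37 and 15.35 in SIRT1 KO mESCs, against 15.08, 15.12 and 15.13 in WT mESCs, adjusted p = 0.00587, log2 fold change 0.23, SE 0.047). Its call ended under the replicate block (0.0146) and on leaving out any of the SIRT1 KO libraries, WT replicate 1 or WT replicate 3, with a range from 0.00153 to 0.0444. The other 13 cofactor genes lay between -0.40 and 0.23.

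Of the 3 D-box factors besides Dbp, Tef was higher, Nfil3 was lower and Hlf did not pass. Tef, a D-box activator of the same family as Dbp, was at 13.72, 13.64 and 13.70 in SIRT1 KO mESCs, against 13.31, 13.34 and 13.43 in WT mESCs (adjusted p = 0.00245, log2 fold change 0.32, SE 0.055). Nfil3 (also called E4BP4), which represses through the same element, was at 10.84, 10.92 and 11.06 in SIRT1 KO mESCs, against 11.37, 11.30 and 11.42 in WT mESCs (adjusted p = 0.00381, log2 fold change -0.42, SE 0.078). In both genes the genotypes did not overlap. The call of Tef ended when SIRT1 KO replicate 1, 2 or 3 was left out (adjusted p = 0.0130, 0.0120 and 0.0170, range 0.00126 to 0.0170), and that of Nfil3 without SIRT1 KO replicate 1 or 2 or WT replicate 3 (0.0160, 0.0218 and 0.0197, range 0.00184 to 0.0218). Hlf, the other activator of this family, was low, at 6.90, 6.96 and 7.03 in SIRT1 KO mESCs, against 7.34, 7.81 and 7.39 in WT mESCs. Its log2 fold change of -0.55 lay at the threshold (SE 0.122, adjusted p = 0.01 after rounding) and was not called, and it passed under the replicate block (adjusted p = 0.00555).

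Enzymes that act on clock proteins were looked up as kinases and as ubiquitin ligases and proteases. Of 10 kinase genes 1 was called, beside 16.6% of all tested genes. It was Csnk2a2, a catalytic subunit of casein kinase 2, at 15.78, 15.70 and 15.67 in SIRT1 KO mESCs, against 14.98, 15.23 and 14.93 in WT mESCs (adjusted p = 0.00037, log2 fold change 0.67, SE 0.081). Many genes around it were higher as well. The 76 tested neighbours within 2.5 Mb had a median log2 fold change of 0.23, with 31 called higher and 0 lower, and the part of that stretch in its value was not tested. The other kinase genes lay between -0.23 and 0.19. Of the genes of ubiquitin ligases and proteases, 8 did not pass, at -0.14 to 0.12. Siah2, which encodes a ligase of REV-ERB alpha, was at 12.81, 12.86 and 12.91 in SIRT1 KO mESCs, against 12.37, 12.30 and 12.43 in WT mESCs (adjusted p = 0.000411, log2 fold change 0.49, SE 0.060). It was higher in SIRT1 KO mESCs under all 15 alternatives.

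Among 13 tested output genes, which the clock drives in other tissues, 5 were higher, none was lower and 8 did not pass, at -0.15 to 0.28, with a median log2 fold change of 0.26. Avp and Ppargc1a were too low to be tested. Tsc22d3 (also called GILZ), a gene that glucocorticoids induce, was at 11.31, 11.46 and 11.37 in SIRT1 KO mESCs, against 10.40, 10.30 and 10.39 in WT mESCs. The genotypes were far apart, with a log2 fold change of 1.02 (adjusted p = 1.89e-05, SE 0.072). Klf15, a regulator of amino acid and glucose metabolism, was at 12.93, 12.82 and 12.77 in SIRT1 KO mESCs, against 12.35, 12.32 and 12.38 in WT mESCs (adjusted p = 0.000444, log2 fold change 0.49, SE 0.061). Alas1, the rate-limiting enzyme of heme synthesis, was at 13.84, 13.88 and 13.93 in SIRT1 KO mESCs, against 13.57, 13.44 and 13.56 in WT mESCs (adjusted p = 0.00183, log2 fold change 0.36, SE 0.058). Nampt, the rate-limiting enzyme of the salvage pathway that makes NAD+, the cosubstrate of SIRT1, was at 15.86, 15.94 and 15.97 in SIRT1 KO mESCs, against 15.67, 15.62 and 15.67 in WT mESCs. Its values did not overlap, with a log2 fold change of 0.27 (adjusted p = 0.00384, SE 0.050) and a fold of 1.21. The call of Alas1 ended when SIRT1 KO replicate 2 or 3 was left out (adjusted p = 0.0135 and 0.0144, range 0.000664 to 0.0144), and that of Nampt without SIRT1 KO replicate 2 or 3 or WT replicate 1 or 3 (0.0292, 0.0285, 0.0121 and 0.0123, range 0.00135 to 0.0292). The fifth higher output gene, Sik1, which encodes a salt-inducible kinase and falls outside the rule for named genes, had a log2 fold change of 0.26 (adjusted p = 0.00675, SE 0.054). Its call was kept, among the libraries left out, only without WT replicate 2 (range over all alternatives 0.00253 to 0.0305), and ended under the replicate block (0.0153), after quantile normalization (0.0136) and without the trend (0.01 after rounding). Promoter windows were found for 12 of the 15 output genes listed, 6 of which held an E-box, although a gene may have several windows, and E-boxes did not mark the higher genes alone. Klf15, with 3 E-boxes, was higher, Prok2, Tspan4, Fkbp5 and Lonrf3 held E-boxes and did not pass, and Avp was not tested. The windows of the higher genes Tsc22d3, Alas1 and Nampt held none.

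By level over the 6 libraries, the genes most like Cry1 among 12455 other genes with a mean of at least 1000 were Ankrd13a (Pearson r = 0.9995), Cd38 (0.9992) and Cfap97 (0.9991), with log2 fold changes of 0.31, 0.55 and 0.65. As the points are only 6 libraries and the genotypes lie apart, 1626 of these genes had an r over 0.95, and the correlations are given as a description.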

How the data were processed

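Total RNA was sequenced from 3 SIRT1 KO and 3 WT libraries of mESCs. Per the study's methods and the labels, the authors aligned reads with STAR to GRCm38, counted them per gene with featureCounts and normalized them with DESeq2. The deposited values are log2 normalized expression made by the authors, 1 per gene and library, and 16649 genes were at 0 in all libraries. Which DESeq2 transformation was used is not stated, and low values are drawn together between libraries, which understates differences of genes with low levels. Since no read counts were used here, the depth of a value is unknown and no count test was run.

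Genotypes were compared with limma 3.58.1 in R 4.3.3 (empirical Bayes, trended prior variance) on 26571 genes, those whose linear values averaged 10 or more, with Benjamini-Hochberg adjustment over all of them. Groups were taken from the genotype labels. SD is between libraries and SE that of the log2 fold change. Positions and exon lengths came from GENCODE vM21 (GRCm38), in which 98.7% of names matched 1 gene. All core clock genes are named, and of every other list up to 4 called members with the smallest adjusted p. Other genes named were chosen after their values were seen. The core genes and lists were chosen with earlier results of these data known.

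Deviations from the genotype mean correlated at 0.242, 0.149 and 0.316 between libraries of equal replicate number and at -0.301 to 0.0838 between unequal ones. As the deviations within a genotype cancel out, positive values for equal numbers force negative ones among unequal numbers, so this contrast is partly built in. It is only a weak hint from the data, since the labels do not say what a number stands for. A fit with a replicate block was an alternative. The others were no filter, a mean of at least 100, median centring, a pseudocount of 10, moderation with robust estimation or no trend, quantile normalization, a threshold of 0.05, and leaving out each library in turn. Splicing and intron coverage were not analysed here, and 1 gene of the wider network is counted but not reported by name.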

Additional observations from a re-analysis of the deposited data

How the results depend on the processing

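The call of Cry1 was kept under all 15 alternatives, while the number of lower core clock genes, 2, was 1 with median centring, which shifted log2 fold changes by 0.06, and 0 to 2 when 1 library was left out. It was 0 without SIRT1 KO replicate 2 or 3, where Clock and Nr1d2 missed the threshold, and 1 without SIRT1 KO replicate 1 or WT replicate 3, where Clock was left. The number of higher core clock genes, 1, was 3 at a threshold of 0.05, which adds Per2 and Per3, and 1 whichever library was left out. Per1 changed sign, with log2 fold changes from -0.0949 (without WT replicate 1) to 0.19 (without WT replicate 2), and -0.07 and -0.08 without SIRT1 KO replicate 1 and WT replicate 3.

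Of the wider network, the 1 lower gene, Nfil3, was joined by Hlf without the filter, with robust moderation and with the replicate block (2 lower genes each), by Gsk3a with a mean of at least 100 (2) and by Gsk3a and Wdr5 after quantile normalization (3). At a threshold of 0.05 the lower genes were 5, Nfil3, Hlf, Arntl2, Npas2 and Gsk3a, and over the libraries left out they were 0 to 4, with 0 without SIRT1 KO replicate 1 or 2 or WT replicate 3 and 4 without WT replicate 2 (Nfil3, Hlf, Arntl2 and Gsk3a). The number of higher network genes, 12, was 7 to 14 over the libraries left out, with 7 on leaving out SIRT1 KO replicate 2 or 3, and 10 with the replicate block, a pairing that changed no call of a core clock gene and ended those of Kdm5a and Sik1. Over all tested genes the 2157 lower and 2251 higher became 3762 and 3804 at a threshold of 0.05, and 1283 to 2669 and 1202 to 2794 over the libraries left out. With median centring 1718 were lower and 3099 higher. The cause of these shifts was not tested. With 3 libraries per genotype, leaving 1 out also lowers the degrees of freedom. The depth behind single values could not be taken into account.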
